A study of Mus musculus with 22 samples.

Results

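The epithelium of the male urogenital sinus, from which prostatic buds grow in the mouse fetus, was compared between conditional Sox9 knockouts and littermate controls across all genes that could be named. The arrays were chosen by sex and genotype as the labels give them: 6 male knockout and 6 male control arrays, 12 of the 22 in the series. The remaining 10 were the female arrays of the same genotypes, which entered the model of the spread and a test of the difference between the sexes. All fetuses were C57BL/6J at E16.75. Knockout fetuses were ShhCre/+; Sox9fl/fl, that is, both Sox9 copies were floxed and the recombinase Cre was inserted at 1 copy of Shh. Control littermates were Shh+/+; Sox9+/fl and so lacked Cre, with Sox9 floxed on a single chromosome. Cre was driven from the Shh locus, which this epithelium transcribes, so that deletion was directed to the epithelium and not to the mesenchyme. Because Cre, the altered Shh allele and Sox9 deletion occurred in the same fetuses, their effects cannot be told apart in this design, and "Sox9 loss" below stands for the difference between the genotypes. Replicates are labelled as biological, with no number of fetuses or litters for an array, and the p-values cover the spread among arrays alone, which may be technical in part.

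SOX9 is an HMG-box transcription factor that maintains progenitor cells in many budding epithelia and directs cartilage formation. In the urogenital sinus, androgens act on the mesenchyme, and the epithelium answers with solid buds that elongate, branch and become the prostatic ducts. SOX9 marks the tips of these buds, while SHH, secreted by the epithelium, signals to receptors in the surrounding mesenchyme, and FGF, WNT, BMP and Notch signals set where buds form and how far they grow.

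Expression is given as log2 values, in which a difference of 1 is a doubling. Genes with exactly 1 symbol in the platform's table numbered 30102, and 19050 of them lay above the array median on at least 5 arrays and were tested, while 11052 were too dim. The array medians of the 12 male arrays lay between 5.1 and 5.27, and 23 background probe sets had a median of 3.18. Within each male group, any pair of arrays had a Pearson correlation of 0.985 to 0.995 over genes. Epithelial markers were high on every array: the mean of 15 epithelial genes (Epcam, Cdh1 and the keratins Krt5, Krt8, Krt14, Krt15, Krt18 and Krt19 among them) lay between 10.99 and 11.11 in controls and between 11.03 and 11.10 in knockouts. Tested mesenchyme markers also gave signal on every array, with a list mean of 6.43 at the lowest in either group. Male control 6 stood apart in the genes of other cells. Its mean over 11 mesenchyme markers was 7.42 against 6.72 at most in the other controls and 6.85 at most in the knockouts, and its mean over 11 smooth muscle markers was 7.33 against 6.36 and 6.54 at most. The mean change of the mesenchyme list was -0.07 with this array and 0.08 without it, and that of the smooth muscle list -0.16 and 0.01. With the mean of the mesenchyme markers in the model, 37 genes were called, 35 of them among those called without it. Beyond that model, the part of these cells in the results was not tested. Values without male control 6 are given beside many, but not all, of the named genes whose change it moved.

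**Figure D1:**
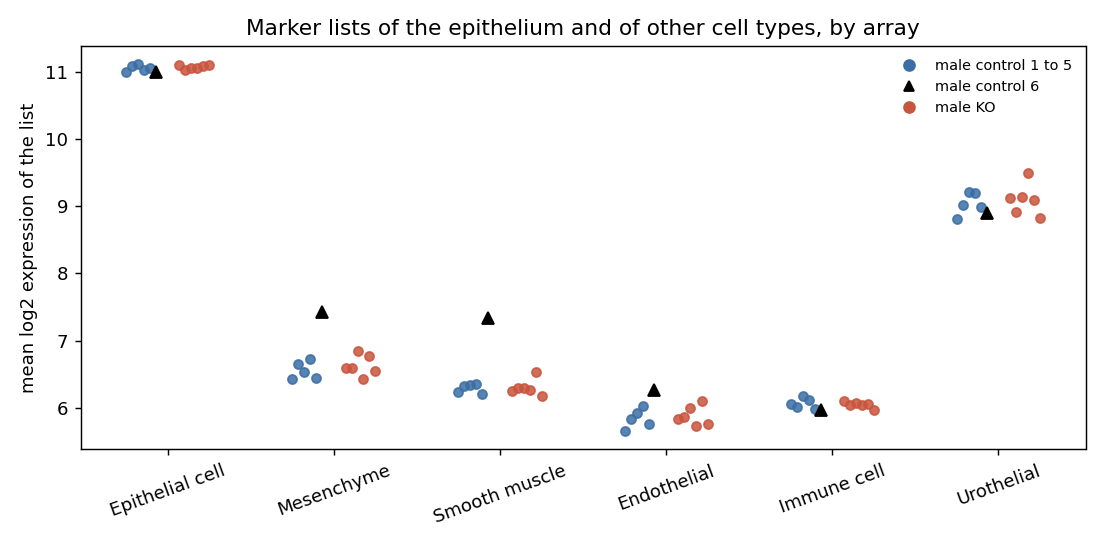
Mean log2 expression of 6 lists of cell type markers on each of the 12 male arrays, with male control 6 as a black triangle, the other controls in blue and the knockouts in red. Epithelial means lie between 10.99 and 11.11 on every array, while male control 6 lies above all others in the mesenchyme (7.42), smooth muscle (7.33) and endothelial (6.27) lists.

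Sox9 itself was reduced in every knockout but remained detectable. The 6 control arrays read 9.05 at the lowest, 9.33 at the median and 9.61 at the highest, and the knockout arrays 8.0, 8.31 and 8.37. No knockout array reached the lowest control. It fell by 1.07 on the log2 scale (SE 0.08, n = 6 and 6), or 2.1-fold, with an adjusted p of 1.04e-07 in limma with Benjamini-Hochberg adjustment over all genes tested. A two-sided exact permutation test over the 924 regroupings of the 12 arrays gave p = 0.00216, the smallest value that it can give. In dissected tissue, fewer cells that transcribe a gene and less RNA per cell cannot be told apart, here and for every gene below. Whether the probes of Sox9 fall inside the floxed segment was not analysed here.

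No other SOX factor passed the test. Of 18 SOX genes tested, 14 were stable, a word used here for genes whose whole 95% interval of the log2 fold change lay within 0.3 of 0, and the median change of the list was -0.02. Sox5 and Sox6, the SOXD partners of SOX9 in cartilage, changed by -0.09 each, with intervals of -0.21 to 0.04 and -0.21 to 0.02. Sox4 (-0.04), Sox2 (0.03) and Sox11 (0.08) were likewise stable. For comparison, 86.1% of all genes tested were stable, 0.199% were called at an adjusted p under 0.05, and their median change was 0.01.

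Shh, the hedgehog ligand of this epithelium, also fell. Control arrays read 11 at the lowest, 11.25 at the median and 11.34 at the highest, and knockout arrays 10.69, 10.76 and 10.87. The ranges of the groups did not overlap. It fell by 0.45 (SE 0.08, limma adjusted p = 0.00874, exact permutation p = 0.00216, again the smallest possible over 924 regroupings). With array weights in the model the change was -0.41 and no longer called (adjusted p = 0.0517). Since every knockout and no control carried Cre at 1 Shh allele, the altered allele and the loss of Sox9 cannot be told apart as its source.

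In the rest of the hedgehog pathway, which in this tissue is read mainly by mesenchyme, no gene was called. Of 16 genes tested, Shh alone was called, 12 were stable (75%, against 86.1% of all genes tested) and the median change was 0.01. Before adjustment, 4 of the 16, Shh included, had a limma p under 0.05, against 6.27% of all genes tested. All 4 were lower. All 5 receptors and co-receptors were stable: Ptch1, the receptor and a transcriptional target of the pathway, changed by 0.05 (interval -0.07 to 0.16), Smo, the signal transducer, by -0.13 (-0.25 to -0.02), Cdon by -0.17 (-0.29 to -0.05) and Boc by 0.10 (-0.08 to 0.28). Hhat, the acyltransferase that lipid-modifies hedgehog proteins, changed by -0.15 and Dhh by 0.15, and neither passed the test.

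Across all genes, 38 of 19050 were called (0.199%), 4 higher (0.021%) and 34 lower (0.178%). Only 4 of the 38, Cxcr4, Col14a1, Mia and Sox9, changed at least 2-fold, the median size was 0.52 and the smallest 0.19. The groups did not overlap for 80 genes (0.42%), 35 of them higher and 45 lower, and 26 of the called genes were among these. Before adjustment, 1195 genes (6.27%) had a p under 0.05. The count of calls rests partly on the female arrays that share the estimate of the spread: in a model of the 12 male arrays alone it was 20, 1 higher and 19 lower, 19 of them among the 38. Without male control 6 it was 27, without control 3 it was 28, and without knockout 4 it was 49, of which 14 were higher, against 7 higher without control 4 or 5. The count of genes without overlap was 242 without control 4, 123 without control 5, 152 without knockout 1 and 169 without knockout 4.

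**Figure D2:**
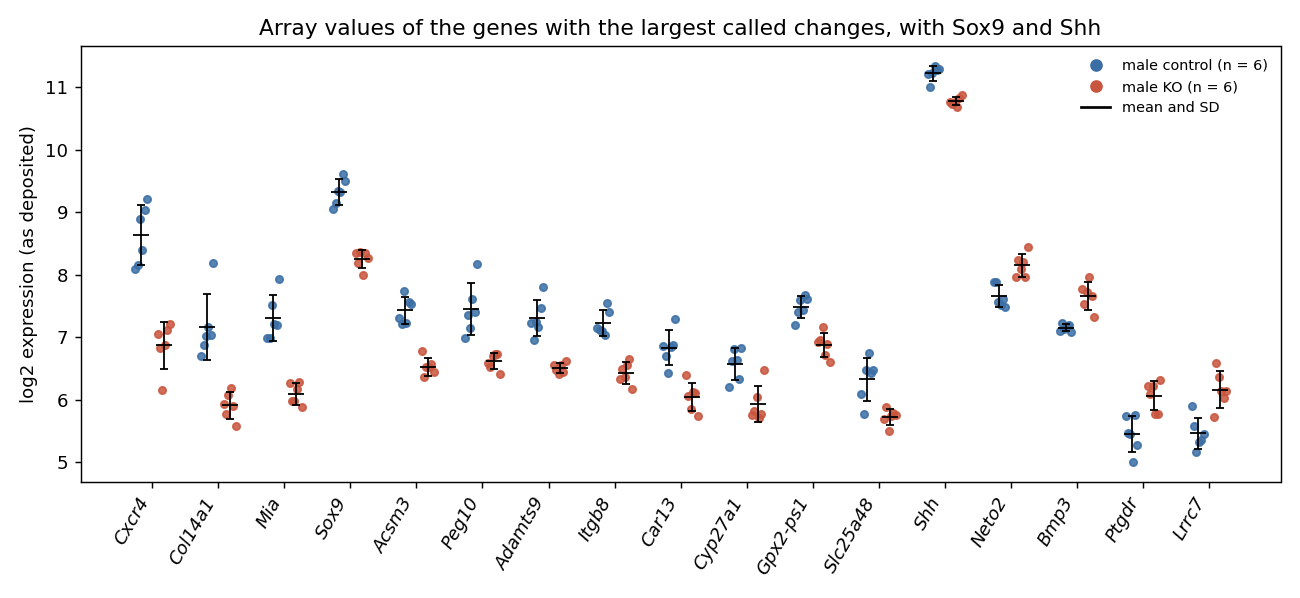
Log2 expression as deposited on each of the 6 male control (blue) and 6 male knockout (red) arrays for Sox9, Shh and the genes with the largest called falls and rises, with mean and SD in black. The groups do not overlap for Cxcr4, Col14a1, Mia, Sox9, Acsm3, Peg10, Adamts9, Itgb8, Car13, Gpx2-ps1, Shh, Neto2, Bmp3 and Ptgdr, while Cyp27a1, Slc25a48 and Lrrc7 overlap.

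Cxcr4, the receptor of the chemokine CXCL12 and a guide of cell migration, showed the largest fall. Controls ranged from 8.09 through a median of 8.65 to 9.22, and knockouts from 6.16 through 6.96 to 7.22. No array of either group entered the other's range. The log2 fold change was -1.76 (SE 0.22, 95% interval -2.22 to -1.30, limma adjusted p = 0.000286), or 3.39-fold, and lay between -1.87 and -1.62 whichever array was left out. Of 26 chemokines and receptors tested, Cxcr4 was the 1 called and 16 were stable, with a median of 0.03. Cxcl14, an epithelial chemokine that is also listed among prostate bud genes, stood at 7.13 ± 0.20 (SD) in controls and 6.72 ± 0.22 in knockouts (-0.41, interval -0.67 to -0.16, adjusted p = 0.378). Cxcl15 (0.02, -0.18 to 0.23), Cx3cl1 (0.02, -0.15 to 0.19) and Ccl27a (-0.08, -0.19 to 0.03) were stable.

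Mia, a small secreted protein that chondrocytes and melanoma cells release and that is known as a SOX9 target in cartilage, read 6.99, 7.21 and 7.93 in controls and 5.88, 6.08 and 6.28 in knockouts. The lowest control lay above the highest knockout. It fell by 1.21 (SE 0.16, limma adjusted p = 0.000801), and the change was -1.09 without male control 6, the array that held the highest value. The other cartilage genes of SOX9 were not called: of 15 tested, Mia alone was called and 12 were stable, with a list median of 0.03. Col2a1, the main collagen of cartilage and a direct target of SOX9 there, changed by -0.24 (interval -0.37 to -0.10, adjusted p = 0.293), Col9a3 by -0.12 and Matn4 by 0.11. A further list held 17 tested genes linked to SOX9 or to epithelial progenitors elsewhere, and was chosen with earlier results of these data known. Dependence of its members on SOX9 was not checked. Cxcr4 and Mia were the 2 called, 11 were stable and the median was -0.00. Etv5 (-0.21, -0.48 to 0.05, and -0.13 without male control 6), Clu (-0.14, -0.37 to 0.08) and Psca (0.21, -0.06 to 0.48, and 0.32 without male knockout 4) had intervals too wide for that label, whereas Itga6 (-0.09), Fgfr2 (-0.04) and Foxa2 (0.03) were stable.

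Single genes of the extracellular matrix and of adhesion also fell. Col14a1, a collagen that binds the surface of collagen fibrils and is typical of mesenchyme, read 6.70, 7.02 and 8.19 in controls and 5.59, 5.92 and 6.19 in knockouts. Its highest control value, 8.19, came from male control 6, and the next was 7.16, yet all controls exceeded all knockouts. It fell by 1.25 (SE 0.18, limma adjusted p = 0.00127). The change was -1.05 without control 6 (adjusted p = 0.000498) and -1.18 with the mean of the mesenchyme markers in the model. No other of 41 collagens tested was called, and 31 were stable (75.6%, median -0.01). The basement membrane chains Col4a1 (-0.17, interval -0.26 to -0.07, adjusted p = 0.313) and Col4a2 (-0.18, -0.30 to -0.06) and the antiangiogenic Col18a1 (0.22, 0.09 to 0.34, adjusted p = 0.329) were not called either, and Col17a1 of hemidesmosomes stood at -0.01.

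Adamts9, a secreted protease that cleaves versican and other proteoglycans, ranged from 6.95 (median 7.23) to 7.80 in controls and from 6.41 (median 6.51) to 6.62 in knockouts. The ranges were separate, and the highest value was again that of male control 6. It fell by 0.80 (SE 0.14, limma adjusted p = 0.00705), and the change was -0.70 without that array (adjusted p = 0.023). It was the 1 called among 48 matrix proteases, inhibitors and substrates tested, of which 34 were stable. Other proteases had estimates below 0 and did not pass: Adamts18 (-0.44, -0.75 to -0.14), Adamts15 (-0.38, -0.69 to -0.07, and -0.27 without male control 6) and the gelatinase Mmp2 (-0.49, -0.84 to -0.13, adjusted p = 0.553). Mmp2 read 8.51 in male control 6 and 7.43 at most in the other controls, and its change was -0.29 without that array. Adam10 (0.02) and Mmp11 (-0.15) were stable, and the list's median was 0.00.

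Itgb8, the integrin subunit that frees TGF-beta from its latent complex, read 7.03, 7.14 and 7.55 in controls and 6.17, 6.43 and 6.66 in knockouts, with no overlap. It fell by 0.80 (SE 0.10, limma adjusted p = 0.000256), and none of 25 other integrin subunits passed. Of the 26, 21 were stable, Itgb1 (-0.09, -0.20 to 0.02) and Itgb5 (0.01, -0.10 to 0.11) among them, and the list's median was 0.00. Itgb4 of hemidesmosomes changed by -0.20 (-0.33 to -0.07) and Itga9 by -0.34 (-0.57 to -0.10), or -0.21 without male control 6. Laminins and basement membrane genes gave 0 calls of 24, with 18 stable (75%, against 86.1% of all genes tested) and a median of -0.01. Before adjustment, 5 of the 24 had a limma p under 0.05, all lower, against 6.27% of all genes tested in either direction. Agrn stood at -0.13 (-0.22 to -0.04), without overlap of the groups. The laminin chain Lama1 stood at -0.17 (-0.32 to -0.03), while Lama5 (0.02) and Lamc1 (0.10) lay close to 0.

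Smaller falls concerned proteins that link adhesion to the cytoskeleton and to engulfment. Tns4, a tensin that binds integrin tails and EGF receptor complexes, went from 8.80 ± 0.12 to 8.27 ± 0.14 (-0.53, limma adjusted p = 0.00151). Mfge8, a secreted bridge between apoptotic cells and integrins, went from 9.20 ± 0.07 to 8.81 ± 0.13 (-0.40, limma adjusted p = 0.00151). For both genes every knockout array lay below every control. Cdc42ep1, an effector of the small GTPase CDC42, went from 8.09 ± 0.11 to 7.72 ± 0.14 (-0.37, limma adjusted p = 0.00742), with overlap of 1 array on each side.

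Among growth factor and receptor genes, Igfbp4, which binds and restrains insulin-like growth factors, fell from 8.83 ± 0.18 to 8.32 ± 0.05 (-0.51, SE 0.07, limma adjusted p = 0.00127) with no overlap of arrays. It was the 1 called of 13 IGF pathway genes, 10 of which were stable, Igfbp5 (-0.02), Igfbp7 (-0.02), Irs1 (0.12) and Irs2 (0.06) among them. Lrig1, a membrane protein that restrains ERBB receptors and marks stem cells of several epithelia, went from 6.90 ± 0.20 to 6.42 ± 0.14 (-0.48, limma adjusted p = 0.00549), with 1 array of each group inside the other's range. The EGF receptor family itself gave no call: Egfr (0.06, -0.07 to 0.19), Erbb2 (-0.06, -0.17 to 0.04) and Erbb3 (0.01, -0.09 to 0.10) were stable. Of the 9 genes of that list 7 were stable, and Nrg2, an ERBB ligand, stood at 0.20 (0.10 to 0.30, adjusted p = 0.135) with no overlap of the groups.

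Pcsk6, a convertase that activates TGF-beta family precursors, fell from 6.89 ± 0.11 to 6.57 ± 0.08 (-0.32, limma adjusted p = 0.0152). Its call was lost without control 6, knockout 2 or knockout 6 (-0.34 to -0.30 over all left-out arrays), and with only the male arrays. The other 5 proprotein convertases tested were stable, Furin at -0.08 (-0.18 to 0.03) and Pcsk5 at -0.11 (-0.25 to 0.03) included. Gprc5b, an orphan G protein-coupled receptor, fell from 8.89 ± 0.20 to 8.32 ± 0.14 (-0.56, limma adjusted p = 0.00204) without overlap, and the change was -0.49 without male control 6. The nuclear corepressor Hr (hairless), known from the hair follicle cycle, fell from 7.65 ± 0.14 to 7.24 ± 0.09 (-0.42, limma adjusted p = 0.00529). Mamld1, a nuclear coactivator whose mutations are known in hypospadias, a malformation of the male urethra, went from 6.58 ± 0.16 to 6.13 ± 0.12 (-0.45, limma adjusted p = 0.00287), with overlap of 1 array on each side.

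Acsm3, Slc27a1 and Cyp27a1, which act on fatty acids and sterols, fell. Acsm3, a mitochondrial medium-chain acyl-CoA synthetase, read 7.21, 7.42 and 7.74 in controls and 6.36, 6.52 and 6.78 in knockouts. Every knockout lay below every control. It fell by 0.90 (SE 0.12, limma adjusted p = 0.00082). Slc27a1, a fatty acid transporter with acyl-CoA synthetase activity, fell from 8.76 ± 0.10 to 8.21 ± 0.14 (-0.55, SE 0.06, limma adjusted p = 0.000136), also without overlap. The calls for Acsm3 and Slc27a1 held under all settings in which the genes were tested. Among 11 acyl-CoA synthetases tested Acsm3 alone was called and 7 were stable, Acsl5 (0.00, interval -0.13 to 0.12) and Acsf2 (-0.01) among them. Acsl4, an arachidonate-preferring synthetase, stood at 7.56 ± 0.09 in controls and 7.85 ± 0.15 in knockouts (0.29, 0.09 to 0.49, adjusted p = 0.518).

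Cyp27a1, the mitochondrial sterol 27-hydroxylase, ranged from 6.21 (median 6.62) to 6.83 in controls and from 5.71 (median 5.80) to 6.47 in knockouts. Knockout 6, at 6.47, lay inside the control range and the other 5 knockouts below it. It fell by 0.64 (SE 0.12, limma adjusted p = 0.0229). Its call was kept only without control 1, control 5, knockout 3 or knockout 6 and lost without any of the other 8 arrays (-0.75 to -0.59). Genes of cholesterol synthesis were stable in 16 of 17 cases with 0 called, and steroid enzymes in 10 of 12 with 0 called, Hsd17b11 standing at -0.23 (-0.34 to -0.12, adjusted p = 0.106).

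Car13, a cytosolic carbonic anhydrase, read 6.43, 6.85 and 7.29 in controls and 5.74, 6.08 and 6.40 in knockouts, close but not overlapping. It fell by 0.79 (SE 0.11, limma adjusted p = 0.00127), and the change was -0.69 without control 6. Of 11 carbonic anhydrases tested it was the 1 called, and 5 were stable. Car2 (-0.45, -0.70 to -0.20, adjusted p = 0.27) and Car12 (-0.20) had estimates below 0 and Car5b (0.35, 0.08 to 0.63) one above.

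Gpx2-ps1, annotated as a transcribed pseudogene of Gpx2, read 7.20, 7.52 and 7.68 in controls and 6.61, 6.91 and 7.17 in knockouts, without overlap. It fell by 0.61 (SE 0.09, limma adjusted p = 0.00127). Gpx2, the glutathione peroxidase of gut and other endodermal epithelia, fell by 0.50 (SE 0.09, limma adjusted p = 0.0159), from 6.99 ± 0.21 to 6.49 ± 0.16. The copies are nearly identical, so probes for one may read the other, and which of them changed is uncertain. The call for Gpx2 was lost without control 3, control 4, control 6 or knockout 6 (-0.55 to -0.45).

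Noxo1 and Noxa1, the organizer and activator subunits that switch on the NADPH oxidase NOX1, both fell. Noxo1 went from 6.58 ± 0.20 to 6.14 ± 0.13 (-0.44, limma adjusted p = 0.00705) and Noxa1 from 7.08 ± 0.19 to 6.68 ± 0.10 (-0.40, limma adjusted p = 0.0343). The call for Noxa1 was kept only without control 1, knockout 1, knockout 4 or knockout 5 (-0.47 to -0.37). They were the 2 called of 10 oxidase genes tested, and 6 were stable. The shared membrane subunit Cyba (-0.08, -0.22 to 0.05) and the dual oxidases Duox1 (-0.03) and Duox2 (0.06) belonged to the stable ones, and the list's median was -0.04.

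Slc25a48, a mitochondrial carrier, ranged from 5.78 (median 6.45) to 6.75 in controls and from 5.51 (median 5.76) to 5.89 in knockouts. Control 2, at 5.78, lay within the knockout range. It fell by 0.60 (SE 0.12, limma adjusted p = 0.0207), and the call was lost without control 3, 4, 5 or 6 or knockout 3 (-0.71 to -0.51). Slc7a5, the large neutral amino acid transporter, went from 8.23 ± 0.16 to 7.81 ± 0.18 (-0.42, limma adjusted p = 0.0243), and was not called without control 1, 3, 5 or 6 or knockout 3 or 6 (-0.46 to -0.35). Kcnn4, a calcium-activated potassium channel, went from 6.73 ± 0.32 to 6.17 ± 0.13 (-0.56, limma adjusted p = 0.048). It was called only without control 1, control 5 or knockout 1 (-0.63 to -0.45), and its change was -0.45 without control 6. Wnk2, a kinase that regulates chloride cotransporters, went from 7.90 ± 0.13 to 7.60 ± 0.13 (-0.30, limma adjusted p = 0.0464) and was called only without control 1 or knockout 6 (-0.34 to -0.26). Sel1l3 fell by 0.45 (limma adjusted p = 0.0019) and Smim6, a small membrane protein, by 0.56 (limma adjusted p = 0.0268). The latter call was kept only without control 1, control 2, knockout 1 or knockout 5 (-0.63 to -0.50).

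Imprinted genes, which are transcribed from 1 parental allele, gave 3 falls of 20 tested. Peg10, a gene of retrotransposon origin needed in placenta, read 6.99, 7.39 and 8.17 in controls and 6.42, 6.64 and 6.73 in knockouts. Control 6 held the highest value, and no array overlapped. It fell by 0.83 (SE 0.14, limma adjusted p = 0.00504), and the change was -0.69 without control 6 (adjusted p = 0.00368). Sgce, which encodes epsilon-sarcoglycan and shares an imprinted domain with Peg10, fell by 0.47 from 5.98 ± 0.27 to 5.51 ± 0.12 (limma adjusted p = 0.0436). Its call was kept only without control 1, control 5 or knockout 1 (-0.53 to -0.37), and its change was -0.37 without control 6. Cdkn1c, an inhibitor of cyclin-dependent kinases, fell by 0.19 from 9.20 ± 0.09 to 9.01 ± 0.04 (limma adjusted p = 0.0461), a change so small that it also met the bound for stable genes. That call was kept only without control 2, control 4, control 5 or knockout 6 (-0.21 to -0.17). Of the 20, 12 were stable, Igf2 (0.01, -0.14 to 0.16), Grb10 (-0.03) and Ndn (-0.09) among them, and the median was -0.05, with 16 estimates below 0 (43.3% of all genes tested were below 0). Zim1 (-0.33, -0.57 to -0.09) and Peg3 (-0.25, -0.46 to -0.04) did not pass.

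The 4 genes that rose were Bmp3, Neto2, Ptgdr and Lrrc7. Bmp3, a BMP family ligand known to antagonize other BMPs, read 7.08, 7.15 and 7.23 in controls and 7.32, 7.69 and 7.97 in knockouts. All knockouts lay above the narrow control range. It rose by 0.51 (SE 0.09, limma adjusted p = 0.00529) and was the 1 rise that was also called with only the male arrays. Neto2, an auxiliary subunit of kainate-type glutamate receptors, read 7.49, 7.60 and 7.89 in controls and 7.97, 8.15 and 8.44 in knockouts. Again no array overlapped, and the rise was 0.49 (SE 0.09, limma adjusted p = 0.00705).

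Ptgdr, a receptor for prostaglandin D2, read 5.01, 5.46 and 5.76 in controls and 5.77, 6.16 and 6.32 in knockouts, so the highest control and the lowest knockout nearly touched. It rose by 0.62 (SE 0.11, limma adjusted p = 0.00862). Lrrc7, a postsynaptic scaffold protein (densin), ranged from 5.16 (median 5.40) to 5.90 in controls and from 5.73 (median 6.14) to 6.59 in knockouts, with control 1 and knockout 1 inside the other group's range. Its rise was 0.70 (SE 0.13, limma adjusted p = 0.00894). Of 17 prostaglandin enzymes and receptors, Ptgdr was the 1 called and 12 were stable, while Ptger3, a receptor for prostaglandin E2, stood at 6.50 ± 0.24 and 6.92 ± 0.10 (0.41, 0.21 to 0.61, adjusted p = 0.0988). Of 24 glutamate receptors and scaffolds, Neto2 and Lrrc7 were the 2 called and 18 were stable. Gria3, an AMPA receptor subunit, changed by 0.39 (0.18 to 0.60, adjusted p = 0.208) and the scaffold Shank2 by -0.33 (-0.52 to -0.13, adjusted p = 0.329).

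**Figure D3:**
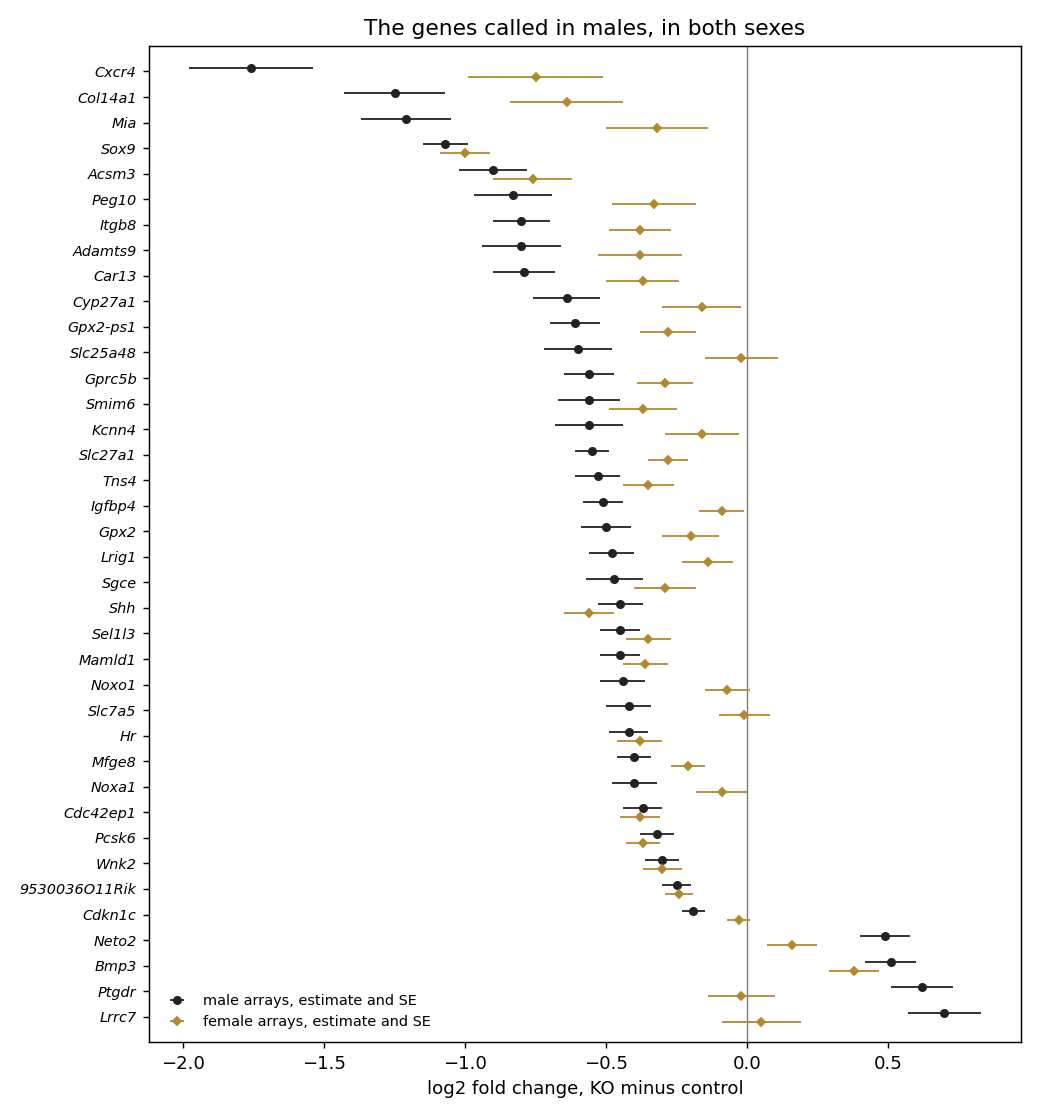
Log2 fold change, knockout minus control, of the 38 genes called in males, with the estimate and SE from the male arrays (black circles) and from the female arrays (gold diamonds). Male changes run from -1.76 (Cxcr4) to 0.70 (Lrrc7), and 37 of the 38 female estimates have the same sign.

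Several called genes lay beside each other in the genome. In the gene order of the RefSeq table for GRCm38.p6, restricted to tested genes, Igfbp4 and Tns4 were adjacent on chromosome 11, Sgce and Peg10 on chromosome 6, and Shh and the long noncoding RNA 9530036O11Rik on chromosome 5. 9530036O11Rik fell by 0.25, from 6.54 ± 0.10 to 6.29 ± 0.04 (limma adjusted p = 0.0157). Its call was lost without control 2, control 3, knockout 2 or knockout 5 (-0.28 to -0.23). Adamts9 and Lrig1 on chromosome 6 and Gprc5b and Acsm3 on chromosome 7 were each separated by 3 tested genes.

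The pairs were chosen because both genes were called, so smaller changes in the genes around them follow in part from that choice. The 3 genes between Adamts9 and Lrig1, which were Gm5313, Magi1 and Slc25a26, changed by -0.00 to 0.13, and the 3 between Gprc5b and Acsm3, which were Gpr139, Thumpd1 and Ppp1ccb, by -0.02 to 0.02. Of the tested genes nearest on either side, up to 8 per side, 16 beside Igfbp4 and Tns4 changed by -0.10 to 0.26, 14 beside Sgce and Peg10 by -0.23 to 0.11, and 16 beside Shh and 9530036O11Rik by -0.20 to 0.16. The 16 beside Adamts9 and Lrig1 changed by -0.15 to 0.18, and the 16 beside Gprc5b and Acsm3 by -0.15 to 0.24. None of these flanking genes was called. Around Sox9, 0 of the 20 nearest tested genes were called, with changes from -0.27 to 0.38. Before adjustment, the limma p was under 0.05 for 6.27% of all genes. Among the 20 nearest, called ones included, it was so for 5 around Gprc5b and 4 around Shh. For Sox9, Igfbp4, Tns4 and Acsm3 the number was 3 each, and for Peg10 and Sgce it was 1 of 17 and 1 of 16. Chromosome 7 held 8 of the 38 calls among 1419 genes tested (0.564%, against 0.199% over all chromosomes).

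**Figure D4:**
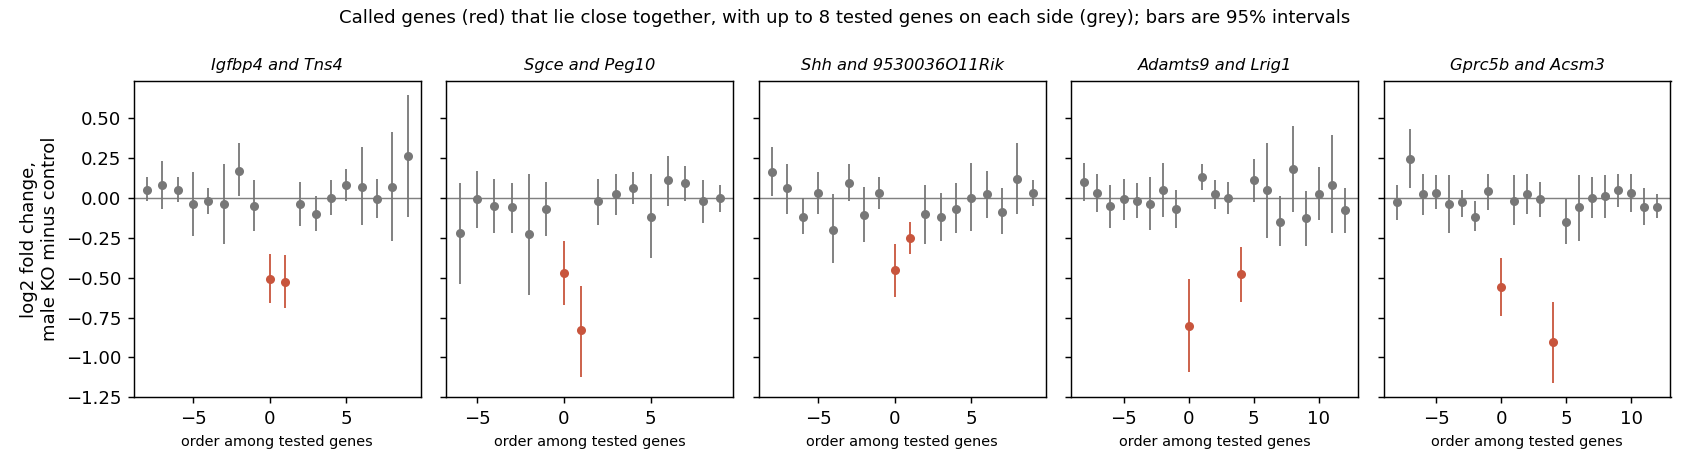
Log2 fold change with 95% interval of called genes that lie close together (red) and of the tested genes on each side (grey), in the order of genes along the chromosome. In each of the 5 panels the called pair lies between -0.25 and -0.90 while the genes between and beside them lie between -0.23 and 0.26. The pairs were chosen because both genes were called.

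Promoters of the called genes were searched for the core that SOX proteins bind, spelled ACAATG or ACAAAG on either strand, which do not overlap each other, in the window of 250 bases before to 50 after the start given by RefSeq for GRCm38.p6. The table held a promoter for 25 of the 38 called genes, and 1 of the 25 (4%) had a match, against 2886 of 12097 tested genes with a promoter (23.9%). The match is shown for Gpx2, beside the promoter of Cxcr4, the gene with the largest fall, which had none. Each line gives the 250 bases before the start, 5′ to 3′ on the minus strand, with the matching letters in capitals, the reverse complement of ACAAAG, beginning 28 bases before the start of Gpx2.
Gpx2, chr12:76795555-76795804: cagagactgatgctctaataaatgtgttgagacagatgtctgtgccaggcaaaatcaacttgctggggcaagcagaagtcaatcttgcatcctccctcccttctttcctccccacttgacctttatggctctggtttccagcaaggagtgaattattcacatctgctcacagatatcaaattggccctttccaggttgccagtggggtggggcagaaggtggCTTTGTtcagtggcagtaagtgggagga
Cxcr4, chr1:128592300-128592549: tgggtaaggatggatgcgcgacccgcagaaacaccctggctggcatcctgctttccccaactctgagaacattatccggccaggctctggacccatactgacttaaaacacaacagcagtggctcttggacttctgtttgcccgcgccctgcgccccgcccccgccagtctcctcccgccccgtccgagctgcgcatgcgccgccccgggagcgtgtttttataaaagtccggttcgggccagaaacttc
A match of letters is no evidence of binding, and a window without them says nothing about SOX9 at these genes, since enhancers further away were not searched.

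The signalling pathways of budding were then examined as lists. In all, 64 lists with 1332 tested genes were described, 19 of which held a called gene and 45 none. Of the 38 called genes 21 belonged to 1 or more of them and 17 to none, among 1332 and 17718 tested genes. Members and lists were chosen with earlier results of these data known, so these counts do not show that calls gather in the listed functions. Among list members 79% were stable against 86.6% of the genes in no list. When all genes were split by level into 4 groups of equal size, 81.9% of the lowest group were stable and 93.7% of the highest.

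WNT pathway genes gave 0 calls of 50, with 37 stable and a median of 0.02. Lef1, a WNT target that marks prostatic buds, stood at 6.77 ± 0.17 in controls and 7.19 ± 0.37 in knockouts (0.41, interval 0.14 to 0.69, adjusted p = 0.467). The secreted inhibitors Sfrp5 (0.27, 0.11 to 0.43), Dkk3 (-0.31, -0.51 to -0.12, and -0.23 without male control 6) and Sfrp1 (-0.30, -0.53 to -0.07) had estimates on both sides of 0. The receptors Fzd6 (0.01, -0.11 to 0.13) and Lrp6 (0.07, -0.05 to 0.19) and the receptor-degrading ligase Znrf3 (0.02, -0.09 to 0.12) were stable.

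FGF signalling, which drives bud outgrowth from the mesenchyme, likewise gave 0 calls of 26, with 19 stable and a median of 0.04. All 5 receptors were stable, and Fgfr2, the epithelial receptor of FGF10, read 10.44 ± 0.08 in controls and 10.39 ± 0.05 in knockouts (-0.04, -0.14 to 0.05). Spry2, a feedback inhibitor, stood at -0.37 (-0.62 to -0.12, adjusted p = 0.492), Spred1 at -0.16 and the phosphatase Dusp6 at 0.15 (-0.13 to 0.42).

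In the BMP and TGF-beta pathway Bmp3 was the 1 called of 52, and 41 were stable, with a median of 0.00. All 10 receptors and all 9 target genes were stable, Bmpr2 at 0.05 (-0.09 to 0.18) and Id1, a direct target of BMP signalling, at -0.11 (-0.22 to 0.00). Bmp5, at 0.25 (0.06 to 0.45), and the latent TGF-beta binding protein Ltbp1, at -0.25 (-0.47 to -0.04, and -0.16 without male control 1), did not pass.

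Notch genes were stable in 17 of 19 cases with 0 called: the receptors Notch1 (0.02, -0.16 to 0.20), Notch2 (0.02, -0.09 to 0.12) and Notch3 (0.08, -0.03 to 0.20) and the ligand Jag1 (0.13, -0.01 to 0.27) lay within the bound, and the target Hey1 stood at -0.25 (-0.49 to -0.02). The ectodysplasin pathway, active in many epithelial buds, had 7 of 8 genes stable, and the receptor Edar at 0.17 (-0.03 to 0.37). All 7 genes of RET and GDNF signalling, which SOX9 is known to serve in the ureteric bud, were stable, Ret at 0.05 (-0.11 to 0.21) and Gfra1 at -0.05 (-0.18 to 0.07).

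Retinoic acid genes gave 0 calls of 18, with 14 stable and a median of -0.04. The 8 receptors and binding proteins were all stable, Rarg at 0.05 and Rarb at -0.11. The 7 genes listed under synthesis had estimates below 0, with a median of -0.15 (43.3% of all genes tested were below 0). They include Dhrs3 (-0.04, -0.13 to 0.04), a retinal reductase, which works against synthesis. Aldh1a1, a retinal dehydrogenase of epithelia, stood at 8.48 ± 0.15 in controls and 8.09 ± 0.14 in knockouts (-0.39, -0.59 to -0.18, adjusted p = 0.171). Rdh10 (-0.33, adjusted p = 0.553) and Aldh1a2 (-0.33, adjusted p = 0.748) did not pass either. Without male control 6, Rdh10 stood at -0.19 and Aldh1a2, which is known from mesenchyme, at -0.24.

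Genes listed as androgen-responsive gave 0 calls of 22, with 15 stable and a median of 0.00. Whether they respond to androgen in this epithelium was not tested, and the androgen receptor had no probe set with exactly 1 symbol. Fkbp5, a chaperone induced by steroid receptors, stood at 0.25 (0.09 to 0.40, adjusted p = 0.388), Zbtb16 at 0.28 (0.06 to 0.51) and the peptidase Mme at -0.50 (-0.82 to -0.19, adjusted p = 0.402, and -0.35 without male control 6), while Tmprss2 (-0.11, -0.25 to 0.04), Elovl5 (0.01) and Errfi1 (-0.02) were stable. STAT and cytokine genes gave 0 calls of 16 with 13 stable, and the shared receptor subunit Il6st stood at 0.22 (0.11 to 0.34, adjusted p = 0.171). Among 64 axon guidance genes, which also guide epithelial branching, 0 were called and 48 stable, with Robo2 (-0.28, adjusted p = 0.321) and Slit3 (0.29, adjusted p = 0.355) closest to the threshold. Of 10 cell-surface peptidases 0 were called and 5 stable, with a median of -0.11 and Anpep, an aminopeptidase, at -0.36 (-0.56 to -0.15, adjusted p = 0.289). Regulators of G protein signalling gave 0 calls of 13 with 9 stable, and Rgs7 stood at -0.28 (-0.44 to -0.12, adjusted p = 0.268).

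Among the transcription factors in the lists Sox9 was the 1 called. The called nuclear cofactors Hr and Mamld1, described above, were not in these lists. Of 21 genes of prostatic buds only Sox9 and Shh were called, and 11 were stable. Foxa1, a pioneer factor of prostate epithelium, read 10.92 ± 0.14 in controls and 11.09 ± 0.04 in knockouts (0.18, 0.06 to 0.29, adjusted p = 0.459), which met the bound. Of 32 epithelial transcription factors 0 were called and 23 stable, Klf5 at 0.02 (-0.11 to 0.15) and Grhl3 at 0.08 (-0.05 to 0.21), while the ETS factor Ehf stood at -0.19 (-0.31 to -0.06). Forkhead factors gave 0 calls of 37 with 30 stable, and nuclear receptors 0 of 28 with 23 stable, Nr2f2 at 0.03 (-0.10 to 0.15). HOX genes gave 0 calls of 28, with 17 stable and a median of 0.02. The posterior HOXD genes had estimates above 0, at 0.30 for Hoxd12 (0.13 to 0.48), 0.24 for Hoxd10, 0.18 for Hoxd11 and 0.15 for Hoxd13, with adjusted p from 0.321 to 0.879.

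Keratin and junction genes, which make the tissue an epithelium, gave no call. All 15 epithelial markers were stable, and Krt5 (12.64 in both groups, interval -0.09 to 0.08), Krt15 (-0.04, -0.11 to 0.04) and Krt19 (0.01, -0.07 to 0.09) had intervals within 0.11 of 0. Of 40 keratins 0 were called and 33 stable. Of 51 claudins, connexins, cadherins and desmosomal genes 0 were called and 41 stable, with Cdh1, the epithelial cadherin, at 0.04 (-0.06 to 0.14), Dsp at 0.05 (-0.07 to 0.16) and Cldn4 at 0.12 (0.01 to 0.24).

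Differentiation genes of other epithelia had wider intervals. Of 13 urothelial genes 0 were called and 3 were stable: Upk1a (0.04, -0.10 to 0.18), Upk1b (0.02, -0.10 to 0.14) and Grhl3. The list's mean ran from 8.81 to 9.21 in controls and from 8.83 to 9.50 in knockouts. Squamous genes gave 0 calls of 16 with 8 stable, secretory genes 0 of 17 with 8 stable, and markers of the Wolffian and Mullerian ducts 0 of 10 with 6 stable. The interval of Stfa1, -0.04 to 0.65, compares with a median half-width of 0.134 over all genes.

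Markers of non-epithelial cells gave 0 calls in every list. Of 11 mesenchyme markers 2 were stable, with Col1a1 at -0.38 (-0.80 to 0.04), Lum at 0.19 (-0.07 to 0.45) and Dcn at 0.11 (-0.09 to 0.31). Of 11 smooth muscle markers 5 were stable, with Cnn1 and Myl9 at -0.35 each. Without male control 6, Col1a1 stood at -0.13, Lum at 0.30, Cnn1 at -0.07 and Myl9 at -0.04. Immune (10 of 13 stable), nerve and Schwann cell (6 of 6), red cell (4 of 4), neuroendocrine (5 of 6) and endothelial (4 of 7) markers completed this set.

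Proliferation and stress genes gave no call. DNA replication genes were stable in 25 of 27 cases, Pcna at -0.01 (-0.13 to 0.11) and Mcm2 at 0.04 (-0.08 to 0.16), and mitotic genes in 23 of 25, Mki67 at 0.08 (-0.07 to 0.24) and Plk1 at 0.02 (-0.15 to 0.18), with 0 called in either list. Of 18 genes of the p53 response and apoptosis 15 were stable, with Cdkn1a at 0.21 (0.05 to 0.37, adjusted p = 0.624) and Pmaip1 at 0.31 (0.07 to 0.54). Immediate early genes, which respond to tissue dissociation, gave 0 calls of 18 with 12 stable, Jun at -0.01 (-0.31 to 0.30).

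Genes of the core machinery of the cell were nearly all stable. All 42 ribosomal protein genes (changes -0.08 to 0.11), 36 proteasome subunits (-0.13 to 0.12), 41 spliceosome genes (-0.13 to 0.06), 23 chromatin regulators (-0.15 to 0.08) and 17 genes of the unfolded protein response (-0.06 to 0.09) were stable, as were 74 of 75 respiratory chain subunits (-0.06 to 0.16). Actb read 12.25 ± 0.05 and 12.23 ± 0.03, and Gapdh 11.68 ± 0.05 and 11.70 ± 0.04. Of 21 genes of glycolysis and hypoxia 15 were stable and 0 called, with a median of 0.07 and 17 estimates above 0 (56.7% of all genes tested were above 0). These lists hold abundant transcripts, and of all genes in the highest of the 4 groups by level 93.7% were stable.

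**Figure D5:**
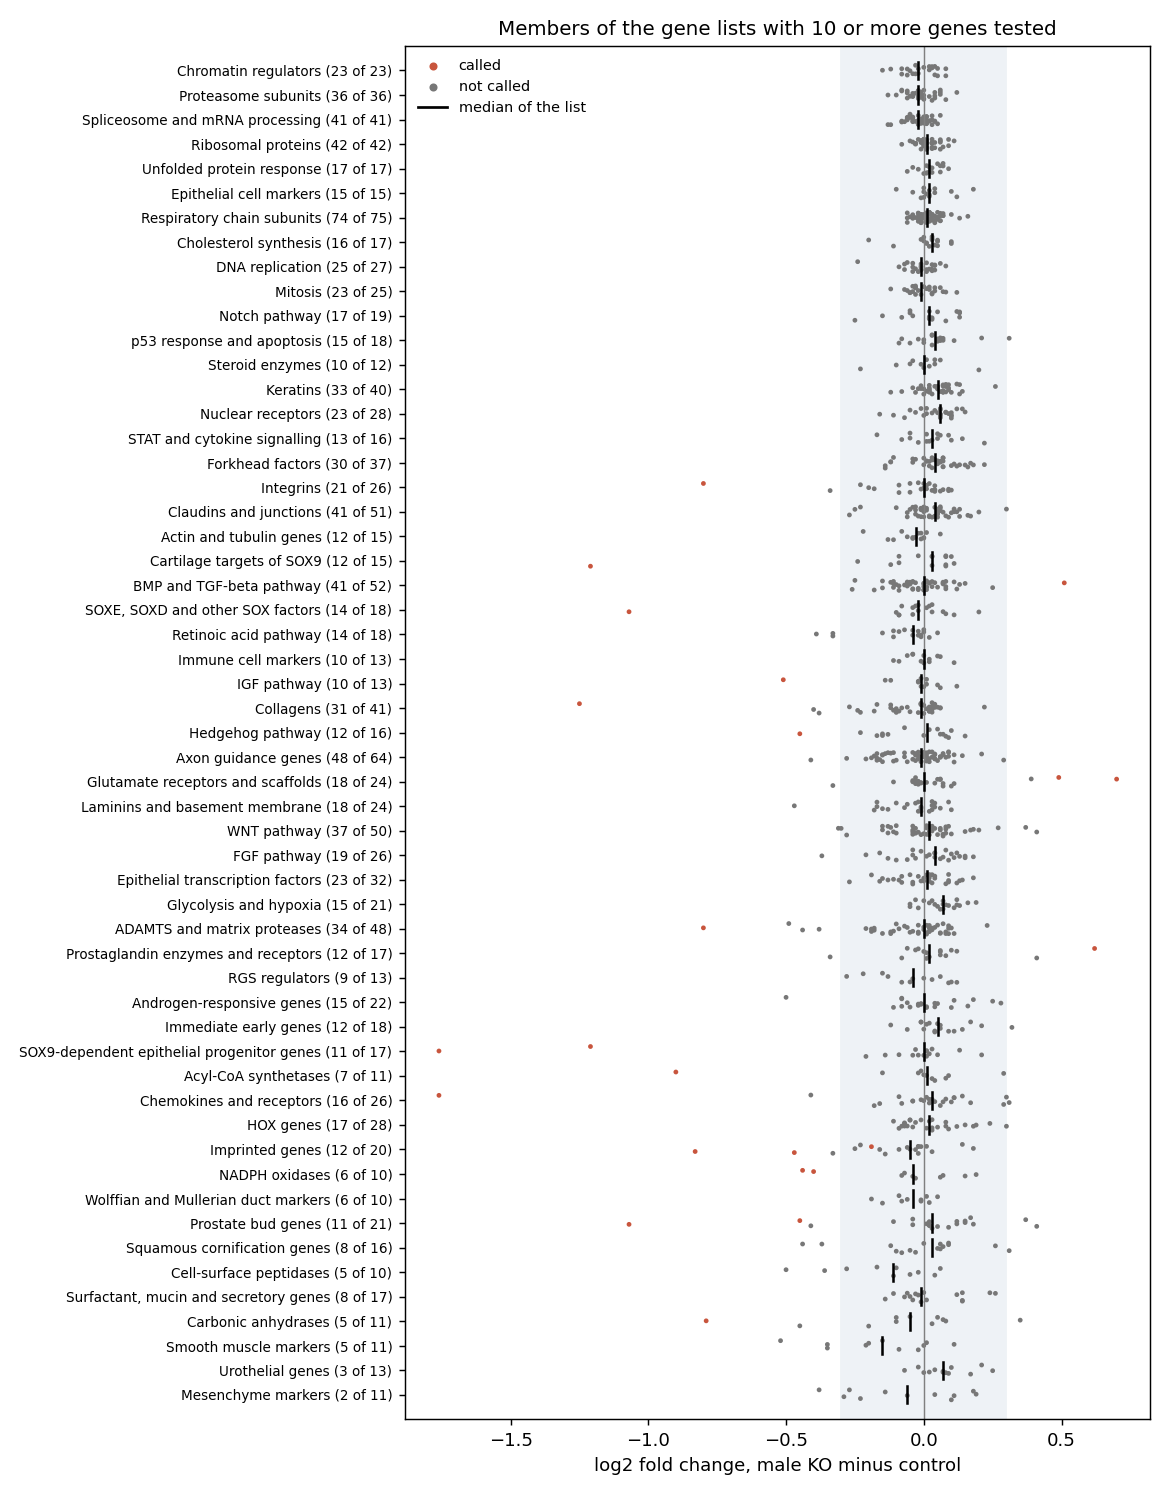
Log2 fold change, male knockout minus control, of each tested member of the lists with 10 or more tested genes, except 1 list that is not reported here, with called genes in red, other genes in grey and the list's median as a black bar. The number of stable members of those tested stands beside each name, and the shaded band spans -0.3 to 0.3. Ribosomal, proteasome, spliceosome, chromatin and unfolded protein response genes lie wholly within the band, while the called genes other than Cdkn1c (-0.19) lie outside it.

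The female arrays carried the same alleles in a sinus that normally forms no prostate, and the male minus female difference of the effects was tested for every gene. It passed for 1 gene of 19050 (0.00525%), which was not among the 38. Of the 38 genes called in males, none differed between the sexes after adjustment (adjusted p at least 0.997), although 23 had an unadjusted p under 0.05 for the difference. Over all genes 769 (4.04%) had one, and selection on the male effect by itself enlarges male minus female differences. In females 6 genes were called over the whole array (0.0315%), Sox9, Shh, Pcsk6 and Acsm3 among them. The 38 genes had a median change of 0.29 in size in females against 0.52 in males, on which they had been chosen. Sox9 fell by nearly equal amounts (-1.07 in males, -1.0 in females), as did Cdc42ep1 (-0.37 and -0.38), Hr (-0.42 and -0.38) and Wnk2 (-0.30 and -0.30). Shh (-0.45 and -0.56), Pcsk6 (-0.32 and -0.37), Acsm3 (-0.90 and -0.76) and 9530036O11Rik (-0.25 and -0.24) also fell in both sexes. Estimates near 0 in females belonged to Ptgdr (-0.02, SE 0.12), Lrrc7 (0.05, SE 0.14), Slc25a48 (-0.02, SE 0.13), Slc7a5 (-0.01, SE 0.09), Igfbp4 (-0.09, SE 0.08), Noxo1 (-0.07, SE 0.08), Noxa1 (-0.09, SE 0.09) and Cdkn1c (-0.03, SE 0.04).

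Some of the called genes also read lower in female than in male controls, while no difference between the effects passed for any called gene after adjustment. Ptgdr read 5.45 ± 0.28 in male controls and 4.40 ± 0.12 in female controls (SD, n = 6 and 5), and Lrrc7 5.46 ± 0.26 and 4.79 ± 0.19, so the female values lay nearer to background. Cxcr4 read 8.63 ± 0.48 in male controls and 7.16 ± 0.38 in female controls, and fell by 0.75 (SE 0.24) in females. Its difference between the effects was -1.01 (SE 0.33, unadjusted p = 0.00541, limma adjusted p = 0.997), and that of Mia -0.89 (SE 0.24, unadjusted p = 0.00142, limma adjusted p = 0.997).

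Of the 38 calls, 26 were kept whichever male array was left out and 16 under every setting in which the gene was tested. The stricter filter tested 11946 genes and kept 29 of the 38. Genes that it left untested were not counted as lost. No log2 fold change of a called gene moved by more than 1.27 times when 1 array was left out. In a model of the 12 male arrays alone, calls were lost for Peg10, Lrig1, Noxo1, Cdc42ep1, Neto2, Ptgdr, Lrrc7 and the 12 genes that were also lost with some array left out, while their fold changes stayed as given. Male control 6 held the highest control value in 18 of the 34 genes called lower and male control 1 the lowest in 18, and knockout 6 held the lowest knockout value in 12. Without male control 6 the changes of Cxcr4 (-1.64), Itgb8 (-0.76), Acsm3 (-0.88) and Sox9 (-1.04) were close to those with it.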

How the data were processed

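RNA from sinus epithelium was hybridised to Affymetrix whole-transcript arrays, 1 per sample, per the labels' protocols. The authors deposited log2 intensities for 72688 probe sets; how these were background-corrected and normalized is not given in the sources used, and array medians were nearly equal. Arrays have no read depth, so their number limits the precision. Of 65770 transcript clusters, 30439 carried exactly 1 symbol in the platform's table, 2146 several and 33185 none. For each of 30102 genes the probe set of highest mean over the 22 arrays was used, and 827 symbols were updated through RefSeq (GRCm38.p6).

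Genes above the array's 50th percentile on at least 5 arrays were fitted with limma 3.58.1 (R 4.3.3; lmFit, eBayes) as 4 group means of sex and genotype over 22 arrays, with Benjamini-Hochberg adjustment over 19050 genes and calls at an adjusted p under 0.05. The fit was tested on simulated data. Groups follow the labels. Genes were named by rule: every called gene, and of each list up to 4 of smallest p and 3 of highest level. Members and lists were chosen with earlier results of these data known. Alternatives were other normalizations, filters, probe set rules, variance options, array weights, male arrays only, a mesenchyme covariate, a replicate block and leaving out each array.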

Additional observations from a re-analysis of the deposited data

Results flagged for a closer look

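Single arrays stood apart from the other 5 of their group, by Dixon's criterion, for 4 called genes. Chance alone does this in about 1 of 20 groups, and 76 groups (38 genes, controls and knockouts) were examined, so about 4 such arrays would arise by chance. Cxcr4 read 6.16 in male knockout 3, while the other knockouts lay between 6.83 and 7.22. Col14a1 read 8.19 in male control 6, with the other controls between 6.70 and 7.16. Noxa1 read 6.72 in male control 1 against 7.07 to 7.25 in the other controls. Cdkn1c read 9.09 in male knockout 6 against 8.98 to 9.0 in the other knockouts.

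The effect of genotype differed between the sexes for 1 gene, Gpr157, an orphan G protein-coupled receptor. It read 7.44 in control and 7.58 in knockout males (0.14, limma adjusted p = 0.379) and 7.70 and 7.43 in females (-0.26, limma adjusted p = 0.0343). The male effect minus the female effect was 0.40 (SE 0.06, limma adjusted p = 0.0292).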

How the results depend on the processing

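The changes of Sox9 and Shh kept their direction in every alternative, and Shh lost its call with array weights (-0.41). Calls numbered 20 with only the male arrays, 27 to 49 with 1 male array left out, and 32 to 41 under the other alternatives except the replicate block, and 55 genes had an adjusted p under 0.1. The replicate block gave 26 calls, 24 of them among the 38. Labels do not say whether equal replicate numbers mark a litter or a batch. The correlation of same-numbered deviations ran from -0.212 to 0.109, and 1 of 6 numbers matched its own best. Such correlations over all genes cannot exclude shared litters or batches. The 1 gene that differed between the sexes became 0 with quantile normalization, median centring, no filter, trend and robust options or the replicate block, 2 with array weights, and 0 to 1 with 1 array left out. Stable genes numbered 26340 with no filter (30102 tested), 10539 with the stricter filter (11946 tested), and 15718 to 16269 with 1 array left out. Genes without overlap numbered 99 to 242 with 1 array left out, where fewer arrays separate more easily. No called gene changed direction. The mean changes of the uncalled mesenchyme, smooth muscle and endothelial lists did without male control 6 (-0.07 to 0.08, -0.16 to 0.01 and -0.03 to 0.04). Leaving out arrays for uncalled genes was added after seeing the data. The causes of these shifts were not tested.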
